A study of Mus musculus with 20 samples.

Results

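Lyve1, Folr2, Cd163, Mrc1, Pf4, F13a1, Cbr2, Gas6 and Cd209f were examined as markers of LYVE1-positive resident macrophages of the vessel wall. These 9 genes were given as a list by symbol, and each symbol matched 1 of the 43422 Ensembl genes in the deposited values. They were measured by RNA sequencing of 20 mouse abdominal aortas at day 14 of an infusion of saline or angiotensin II (Ang II), with 5 mice in each of 4 groups. The groups were saline-treated wild-type (WT) mice, WT mice given Ang II at 1000 ng/kg per minute, saline-treated Plod1-/- mice and Plod1-/- mice given the same dose of Ang II. Ang II is a hypertensive peptide, and Plod1 encodes lysyl hydroxylase 1, which modifies collagen. The labels give the strain as C57BL/6 and the age as 6 months for all 4 groups, whereas the methods name the substrain C57Bl/6NCrl and describe male littermates of heterozygous parents that were younger when the pumps were implanted. The loss of Plod1 was not limited to macrophages, so no comparison isolates these cells.

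Resident macrophages settle along blood vessels before or soon after birth and renew themselves locally with little input from blood monocytes. In the arterial adventitia many carry LYVE1, a hyaluronan receptor that is also found on lymphatic endothelium, together with scavenger receptors that take up glycoproteins, hemoglobin and folate. After injury, monocytes enter the wall and become macrophages that can come to share some of these markers. RNA from whole tissue cannot tell fewer cells of a type from less RNA per cell.

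Levels are given as FPKM, the fragments counted for a gene scaled by its length and by the size of the library, which allow levels to be compared between genes per unit of length. Plod1 FPKM was 22.8 or higher in every WT mouse and 0.0415 or lower in every Plod1-/- mouse. Total read numbers were not used here, but the spacing of the lowest FPKM values placed the relative depth of the libraries between 0.903 and 1.09. Xist, which is transcribed in female cells, had 15.1 FPKM in replicate 5 of saline-treated Plod1-/- mice and 7.93 FPKM in replicate 1 of the Ang II-treated Plod1-/- mice, and 0.0328 FPKM or lower in the other 18 libraries. Ang II-treated WT replicate 1 also stood apart from its group. The summed FPKM of 16 genes expressed by macrophages in general (pan-macrophage genes, among them Cd68, Adgre1 and Csf1r) was 2681 in that mouse and ran from 451 to 713 in the other Ang II-treated WT mice. Some of the results that rest on these libraries are given with and without them. Others, among them all correlations, are given with all mice only.

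In GRCm38, all 9 genes are annotated as protein coding. Lyve1 (ENSMUSG00000030787) lies on chromosome 7 from 110850607 to 110863239, and Folr2 (ENSMUSG00000032725) on the same chromosome from 101839988 to 101857194. Cd163 (ENSMUSG00000008845) spans 124304656 to 124330527 of chromosome 6, Mrc1 (ENSMUSG00000026712) spans 14229392 to 14332057 of chromosome 2, and Pf4 (ENSMUSG00000029373) spans 90772435 to 90773383 of chromosome 5. F13a1 (ENSMUSG00000039109) was placed on chromosome 13 from 36867178 to 37050244, and Cbr2 (ENSMUSG00000025150) on chromosome 11 from 120729489 to 120732114. Gas6 (ENSMUSG00000031451) and Cd209f (ENSMUSG00000051906) are on chromosome 8, from 13465374 to 13494490 and from 4102787 to 4105835. Of all stretches of 50 bases in the transcripts of Folr2, 52.6% also occur in Gm10602, which overlaps it on the opposite strand. The shared part was 29.8% for Cd209f with its paralog Cd209g, 12.1% for Cbr2 with Gm11771, at most 0.404% for Cd163 and F13a1, and 0 for the other 4 genes. Gas6 overlaps exons of Tmem255b on the opposite strand, and the library kit is not stated to keep strand, so the values of Folr2, Cd209f, Cbr2 and Gas6 carry this uncertainty. The partner genes were at 0.320 FPKM or lower for Gm10602, 0.254 or lower for Gm11771, 1.32 or lower for Cd209g and 7.48 or lower for Tmem255b.

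The 3 genes that rose most, Pf4, Mrc1 and F13a1, are shown with the 250 bases before their start sites (RefSeq, GRCm38.p6, printed 5′ to 3′ on the strand of the gene). They are printed because these genes rose together in the same mice. Capitals mark GAGGAA, or its reverse complement TTCCTC, a core sequence bound by PU.1, the factor that directs macrophage development.
Pf4, chr5:90772185-90772434, plus strand: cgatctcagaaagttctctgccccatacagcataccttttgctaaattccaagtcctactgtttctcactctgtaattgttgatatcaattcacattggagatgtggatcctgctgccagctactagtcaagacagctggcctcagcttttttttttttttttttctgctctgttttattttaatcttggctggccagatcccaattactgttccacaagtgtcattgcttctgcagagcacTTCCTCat
Mrc1, chr2:14229164-14229413, plus strand: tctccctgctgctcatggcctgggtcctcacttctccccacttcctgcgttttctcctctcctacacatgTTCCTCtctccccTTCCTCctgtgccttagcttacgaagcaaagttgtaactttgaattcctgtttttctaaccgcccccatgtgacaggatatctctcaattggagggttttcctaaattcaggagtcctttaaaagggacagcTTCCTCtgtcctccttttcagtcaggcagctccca
F13a1, chr13:37050245-37050494, minus strand: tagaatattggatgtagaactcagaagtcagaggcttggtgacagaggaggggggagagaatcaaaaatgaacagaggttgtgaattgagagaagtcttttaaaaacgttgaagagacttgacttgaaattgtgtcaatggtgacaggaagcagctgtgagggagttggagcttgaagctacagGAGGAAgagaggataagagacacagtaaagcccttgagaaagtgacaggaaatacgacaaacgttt

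The table of promoter windows, each of 300 bases with 50 of them after the start site, held 10 windows for 8 of the genes and lacked Lyve1. GAGGAA occurred on either strand in 5 of the 10 windows and in 28.3% of 32851 windows of all genes. TGCTGA, the core of a site bound by MAF factors, occurred in 3 of the 10 windows and in 19.5% of all windows. The windows of Cd163, Gas6 and Cd209f held neither sequence, and those of Folr2 held TGCTGA alone. A match describes the letters in the window and does not show that a factor binds there.

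Among the surface receptors, Lyve1 did not rise in any group. Its FPKM was 18.5, 14.9, 21.5, 22.0 and 15.3 in saline-treated WT replicates 1 to 5 and 29.2, 10.7, 12.6, 17.6 and 7.15 in Ang II-treated WT replicates 1 to 5. In Plod1-/- mice it was 16.7, 19.9, 14.7, 4.91 and 11.9 under saline and 10.9, 17.8, 8.0, 14.5 and 20.6 under Ang II. The highest value was that of Ang II-treated WT replicate 1, the lowest that of saline-treated Plod1-/- replicate 4, and all 4 groups overlapped. Cd209f, a C-type lectin of the CD209 family, likewise overlapped in all groups, with group medians from 2.48 to 4.06 FPKM and a range of 1.22 to 6.11 over the 20 mice. Folr2, the folate receptor of macrophages, had the lowest levels of the 9 genes. It ran from 1.0 to 2.65 FPKM in saline-treated WT mice, from 0.968 to 4.72 in Ang II-treated WT mice, from 0.385 to 1.79 in saline-treated Plod1-/- mice and from 1.94 to 4.19 in Ang II-treated Plod1-/- mice. Every Ang II-treated Plod1-/- mouse therefore lay above every saline-treated Plod1-/- mouse for Folr2, but not above the WT mice.

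Mrc1, the mannose receptor that clears glycoproteins, lay between 1.95 and 7.04 FPKM in saline-treated mice and at 25.3 FPKM or higher in 4 of the 5 Ang II-treated Plod1-/- mice. Saline-treated WT mice had 5.56, 4.5, 5.05, 7.04 and 3.93 FPKM, and Ang II-treated WT mice had 13.7, 4.14, 3.92, 4.49 and 3.30. Saline-treated Plod1-/- mice had 3.28, 5.2, 3.87, 1.95 and 2.51 FPKM, and Ang II-treated Plod1-/- mice had 7.94, 25.3, 29.5, 31.5 and 42.5. Ang II-treated Plod1-/- replicate 1 was the one mouse of its group that Ang II-treated WT replicate 1 exceeded. Cd163, the receptor through which macrophages take up hemoglobin bound to haptoglobin, was more scattered. It was 4.40, 3.43, 7.88, 8.35 and 6.65 FPKM in saline-treated WT mice, and 22.0, 4.94, 5.92, 9.89 and 3.60 in Ang II-treated WT mice. It was 5.73, 7.88, 6.05, 1.78 and 3.27 FPKM in saline-treated Plod1-/- mice, and 5.68, 61.1, 11.2, 42.0 and 40.5 in Ang II-treated Plod1-/- mice. Replicates 1 and 3 of that last group stayed within the range of the WT mice, while the other 3 exceeded all 15 mice of the other groups.

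Of the secreted proteins, Pf4 had the widest range. It encodes platelet factor 4 (CXCL4), a chemokine stored in platelets and also made by resident macrophages. In saline-treated WT mice its FPKM was 50.5, 49.0, 26.1, 67.8 and 27.6, and in saline-treated Plod1-/- mice it was 12.5, 24.7, 20.8, 5.83 and 7.57. Ang II-treated WT mice had 71.0, 22.7, 16.8, 22.6 and 21 FPKM. Ang II-treated Plod1-/- mice had 115, 629, 829, 789 and 243 FPKM. The lowest of these exceeded the highest value in any other group, and the saline-treated genotypes did not overlap. F13a1, the A subunit of the coagulation transglutaminase factor XIII, was 9.49, 6.76, 10.7, 10.7 and 10.03 FPKM in saline-treated WT mice. It was 40.7, 10.8, 11.4, 12.5 and 7.71 FPKM in Ang II-treated WT mice, 12.2, 12.3, 11.7, 3.99 and 3.65 in saline-treated Plod1-/- mice, and 12.3, 69.0, 63.3, 93.0 and 73.4 in Ang II-treated Plod1-/- mice. Replicates 2 to 5 of the last group lay above every other mouse, and replicate 1 lay close to the highest saline-treated mice.

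Gas6 and Cbr2 had the highest mean levels of the 9 genes in every group but the Ang II-treated Plod1-/- mice, where Pf4 was higher. Gas6, the secreted ligand of the TAM receptors with which macrophages recognise dying cells, had a mean of 261 ± 25.9 FPKM (SD, n = 5) with saline and 252 ± 83.3 FPKM (SD, n = 5) with Ang II in WT mice. In Plod1-/- mice given saline it was 312 ± 14.5 FPKM (SD, n = 5). With Ang II the Plod1-/- mean was 235 ± 79.8 (SD, n = 5). Its spread was wider in both Ang II-treated groups than in both saline-treated groups. Cbr2, a carbonyl reductase, was 473, 464, 364, 399.9 and 349.7 FPKM in saline-treated WT mice and 386, 336, 482, 378 and 437 in saline-treated Plod1-/- mice. It was 288, 201, 229, 343 and 196 FPKM in Ang II-treated WT mice and 272, 177, 231, 109 and 142 in Ang II-treated Plod1-/- mice. In each genotype every Ang II-treated mouse lay below every saline-treated mouse of that genotype.

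**Figure D1:**
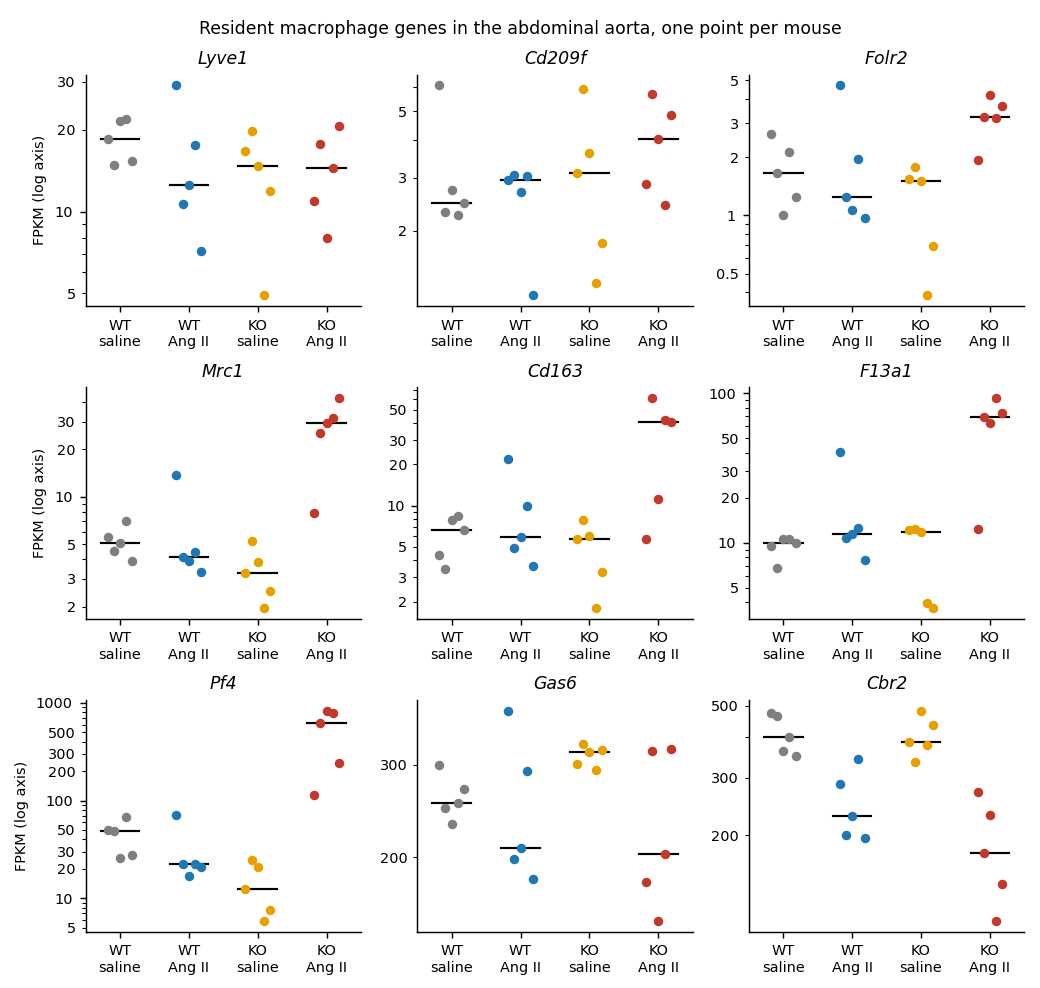
FPKM of each gene on a log axis, with 1 point per mouse, replicates 1 to 5 from left to right in each of the 4 groups and a bar at the group median (KO, Plod1-/-). Pf4 ran from 115 to 829 FPKM in Ang II-treated Plod1-/- mice against 5.83 to 71.0 in the other groups, Lyve1 overlapped in all groups, and Cbr2 was lower with Ang II in both genotypes.

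Differences were tested two-sided by limma after adding 1 to FPKM and taking log2, which understates differences of genes with low FPKM such as Folr2. To be called, a gene needed a Benjamini-Hochberg adjusted p-value below 0.05 over all genes tested together with a log2 difference larger than 1 either way. Genes entered the tests if 5 or more of the mice compared reached 1 FPKM, which all 9 genes did in each comparison. The labels do not give litters or dates, so p-values measure the spread between these mice.

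Without Ang II the genotypes differed in Pf4. Of the 9 genes 1 was called lower in saline-treated Plod1-/- than in saline-treated WT mice, where 0.408% of 11999 genes tested were called lower, and 8 of the 9 estimates were below 0. Pf4 had a mean of 14.3 ± 8.22 FPKM (SD, n = 5) in Plod1-/- and 44.2 ± 17.5 FPKM (SD, n = 5) in WT mice, 0.323 times the WT mean. On the log2 scale the difference was -1.66 (limma SE 0.39, adjusted p = 0.0353). Pf4 was the one gene of the 9 whose groups did not overlap, as held for lower values in 5.3% of all genes tested. The call was sensitive to single mice. The limma adjusted p lay between 0.0536 and 0.0790 without saline-treated WT replicate 1, 2 or 4 or without saline-treated Plod1-/- replicate 1, 4 or 5, although the log2 fold change stayed between -1.41 and -1.66. Mrc1 had the next smallest p among the genes with lower estimates (log2 fold change -0.54, SE 0.20, limma adjusted p = 0.111), followed by Lyve1 (-0.51, 95% interval -1.16 to 0.13). Gas6 had the single estimate above 0, at 0.26 (SE 0.09, limma adjusted p = 0.0855). Over the 14 pan-macrophage genes tested the median difference was -0.24 on the log2 scale, and 1 of them, Cd14, was called lower (-1.94, limma adjusted p = 0.0114). When each mouse's pan-macrophage mean entered as a covariate, Pf4 still had -1.21 on the log2 scale (limma SE 0.24, adjusted p = 0.0415). Of 2 platelet genes tested, 1 had an estimate above 0, the median was -0.37 and 0 were called by limma. The one below 0 was Ppbp, at -1.21 (limma adjusted p = 0.147). Genes of other cell types differed in both directions. All 5 adipocyte genes tested had estimates above 0 (median 1.19, 0 called by limma), as had 4 of 6 smooth muscle genes (median 0.16). Of 6 monocyte and injury macrophage genes tested, 4 were above 0 and 1 was called higher. All 5 red blood cell genes tested were below 0 (median -0.84). All 6 fibroblast genes had estimates below 0 (median -0.67), of which Pi16 was called (-1.13, limma adjusted p = 0.0344) and 4 had an unadjusted p below 0.05. All 4 blood endothelial genes tested were also below 0 (median -0.76), with 0 called by limma and 2 at an unadjusted p below 0.05. Hmox1 was called lower (10.4 against 22.1 FPKM, limma adjusted p = 0.0353). The part of these in the Pf4 difference was not tested.

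In WT mice, 0 of the 9 genes were called between Ang II and saline by limma, against 8.66% of 11994 genes tested. Before adjustment 1 of the 9 had p below 0.05, namely Cbr2, with a limma adjusted p of 0.0111 at a log2 fold change of -0.73 (SE 0.18). Its mean was 251 ± 63.0 FPKM (SD, n = 5) with Ang II and 410.1 ± 56.5 FPKM (SD, n = 5) with saline. The groups did not overlap for Cbr2, as held for lower values in 6.88% of all genes tested. In the same comparison 5 of 5 adipocyte genes tested were called higher (median 3.92), all 6 smooth muscle genes were below 0 with 2 called lower, and the mitochondrial share of FPKM was 14.6 to 29.1% against 8.37 to 14.6%. With the adipocyte mean as a covariate Cbr2 was at -0.0039 (limma adjusted p = 0.99995), and 0 of 11994 genes were called. The adipocyte mean of log2(FPKM + 1) was 2.23 to 5.03 with saline and 5.90 to 7.94 with Ang II. These ranges did not overlap, so that fit cannot separate the adipocyte mean from Ang II. The intervals of the other 8 genes included 0 and were wide, for example -0.64 to 0.65 for Mrc1, -0.53 to 1.18 for Cd163 and -1.45 to 0.20 for Pf4. Without Ang II-treated WT replicate 1 the log2 fold change was -0.31 for Mrc1 and -0.026 for Cd163, and the sign was then opposite to that with all mice for both genes and for Folr2 (-0.23 without it, 0.04 with it). Lyve1 (-0.62, limma adjusted p = 0.0484) and Pf4 (-0.97, limma adjusted p = 0.0207) were then below the p threshold but not past the fold threshold. The median over the 9 genes was -0.10, beside -0.14 over all genes tested.

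In Plod1-/- mice the same infusion went with higher Pf4, F13a1, Mrc1 and Cd163 and lower Cbr2. These were 4 genes called higher and 1 called lower, where 8.38% of 12333 genes tested were called higher and 5.51% lower. Pf4 rose from 14.3 ± 8.22 to 521 ± 324 FPKM (SD, n = 5 each), a ratio of means of 36.5 and 4.93 on the log2 scale (SE 0.59, limma adjusted p = 1.47e-04). F13a1 rose by 2.60 on the log2 scale (SE 0.54, limma adjusted p = 0.00318), Mrc1 by 2.58 (SE 0.38, limma adjusted p = 4.84e-04) and Cd163 by 2.16 (SE 0.60, limma adjusted p = 0.0140). Cbr2 fell by 1.18 on the log2 scale (SE 0.24, limma adjusted p = 0.00258), from 404 ± 56.3 to 186 ± 65.7 FPKM (SD, n = 5 each). It was not called with the adipocyte mean (-0.96, limma adjusted p = 0.0120) or the pan-macrophage mean (-0.66, limma adjusted p = 0.633) as a covariate. The pan-macrophage mean did not overlap between these groups, so a fit with that mean cannot separate it from Ang II. In the same comparison 6 of 6 smooth muscle genes were called lower. Folr2 had 0.99 on the log2 scale (limma SE 0.22, adjusted p = 0.00442), just under the fold threshold. It passed both thresholds, at 1.05 to 1.11, without saline-treated Plod1-/- replicate 1, 2 or 3 or Ang II-treated Plod1-/- replicate 1. The groups did not overlap in 4 genes with higher values (Folr2, Mrc1, Pf4 and F13a1), as in 14.2% of genes tested, and in 1 with lower values (Cbr2), as in 15% of genes tested. Lyve1 (0.12, 95% interval -0.64 to 0.89), Cd209f (0.32, -0.33 to 0.97) and Gas6 (-0.48, limma adjusted p = 0.0925) were not called.

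Between the genotypes under Ang II, Pf4, Mrc1 and F13a1 were higher in Plod1-/- mice. They were 3 of the 9 genes, where 7.45% of 12356 genes tested were called higher, and none of the 9 was called lower. Pf4 had 3.90 on the log2 scale (limma SE 0.57, adjusted p = 0.00184) and means of 521 ± 324 and 30.8 ± 22.6 FPKM (SD, n = 5 each). It was the 1 gene of the 9 without overlap, which held for higher values in 10.4% of genes tested. Mrc1 was 27.4 ± 12.6 FPKM (SD, n = 5) against 5.90 ± 4.36 (SD, n = 5), or 2.04 on the log2 scale (limma SE 0.44, adjusted p = 0.00814). F13a1 was 62.2 ± 30.0 FPKM (SD, n = 5) against 16.6 ± 13.6 (SD, n = 5), or 1.84 on the log2 scale (limma SE 0.55, adjusted p = 0.0281). Without Ang II-treated WT replicate 2, 3 or 5, or without Ang II-treated Plod1-/- replicate 2, 3, 4 or 5, the limma adjusted p of F13a1 was 0.0527 to 0.0718 at log2 differences of 1.63 to 1.77. It was 2.21 (limma adjusted p = 0.00956) without Ang II-treated WT replicate 1 and 2.34 (limma adjusted p = 0.00192) without Ang II-treated Plod1-/- replicate 1. Cd163 had 1.51 on the log2 scale (limma SE 0.64, adjusted p = 0.0911) with all mice. It was called at 1.87 (limma adjusted p = 0.0435) without Ang II-treated WT replicate 1 and at 1.98 (limma adjusted p = 0.0182) without Ang II-treated Plod1-/- replicate 1. Lyve1 had the estimate nearest to 0, at -0.02 with a 95% interval of -0.78 to 0.74. Folr2 (0.61, -0.01 to 1.23), Cd209f (0.46, -0.04 to 0.96), Gas6 (-0.11, -0.72 to 0.50) and Cbr2 (-0.47, -1.06 to 0.11) were not called.

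**Figure D2:**
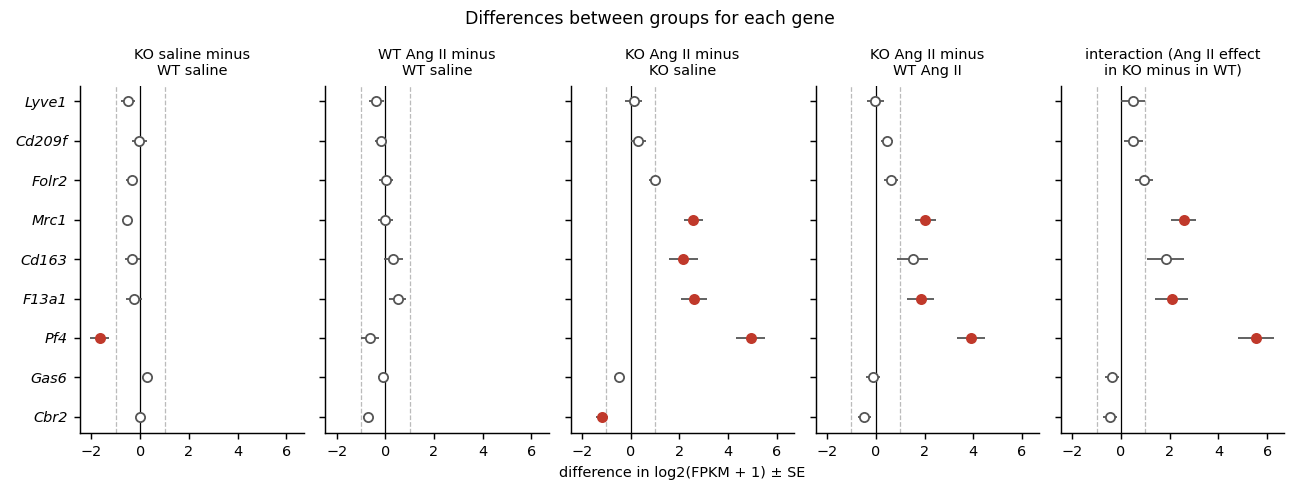
Difference in log2(FPKM + 1) with its SE for each gene in the 4 pairwise comparisons (5 mice against 5) and for the interaction (20 mice), where filled red points passed both thresholds and dashed lines mark a log2 fold change of 1 in size (KO, Plod1-/-). Pf4 lay at -1.66 between the saline-treated genotypes and at 3.90 between the Ang II-treated genotypes.

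The response to Ang II itself differed between the genotypes for Pf4, Mrc1 and F13a1. In a fit on all 20 mice the interaction of genotype and Ang II was called higher for 3 of the 9 genes, where 9.69% of 13263 genes tested were called higher. The difference between the log2 responses was 5.55 for Pf4 (SE 0.74, limma adjusted p = 4.93e-05), 2.57 for Mrc1 (SE 0.51, limma adjusted p = 0.00108) and 2.09 for F13a1 (SE 0.68, limma adjusted p = 0.0220). The Pf4 response was -0.62 in WT and 4.93 in Plod1-/- mice. Cd163 (1.84, SE 0.76, limma adjusted p = 0.0625) and Folr2 (0.95, SE 0.38, limma adjusted p = 0.0550) missed a threshold with all mice. Cd163 was called without Ang II-treated WT replicate 1 (2.19, limma adjusted p = 0.0233) and without Ang II-treated Plod1-/- replicate 1 (2.31, limma adjusted p = 0.00956) or replicate 3 (2.09, limma adjusted p = 0.0439). Folr2 was called without Ang II-treated WT replicate 1 (1.21, limma adjusted p = 0.00517), saline-treated WT replicate 3 (1.05, limma adjusted p = 0.0419), saline-treated Plod1-/- replicate 2 (1.05, limma adjusted p = 0.0461) or Ang II-treated Plod1-/- replicate 1 (1.07, limma adjusted p = 0.0297). The intervals for Lyve1 (-0.51 to 1.49), Cd209f (-0.33 to 1.33), Gas6 (-1.0 to 0.24) and Cbr2 (-1.08 to 0.18) included 0.

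Pan-macrophage genes were higher in the same comparisons. Between the Ang II-treated genotypes, 16 of 16 pan-macrophage genes were called higher, with a median log2 fold change of 2.38 beside 0.61 for the 9 genes and 0.12 for all genes tested. Tyrobp and Fcer1g, which carry signals of activating receptors, were at 3.21 and 2.72, the protease gene Ctss was at 3.41, and Csf1r, the receptor on which macrophages depend for survival, was at 1.55. Of 13 genes of monocytes and injury macrophages, 9 were called higher, among them Arg1 (5.74), Trem2 (3.37), Lgals3 (2.75) and Ccr2 (1.93). Within Plod1-/- mice, 15 of 15 pan-macrophage genes tested rose with Ang II, with a median of 3.29 beside 0.99 for the 9 genes. In WT mice 2 of 14, Lyz2 (1.34) and Ctss (1.38), were called higher with Ang II. With the mean of the pan-macrophage genes as a covariate, 0 of the 9 genes were called by limma between the Ang II-treated genotypes and 0 with Ang II in Plod1-/- mice, where 20 and 2 of all genes tested were called. That mean was 2.53 to 4.01 in saline-treated and 4.93 to 7.55 in Ang II-treated Plod1-/- mice. These ranges did not overlap, so the fit cannot separate the mean from Ang II. In Ang II-treated WT mice the mean was 3.56 to 5.91, so the Ang II-treated genotypes overlapped only in part. The interaction for Pf4 was still called with that covariate (2.74, limma adjusted p = 0.00573), while that for Mrc1 was not (0.74, limma adjusted p = 0.225).

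Each member was therefore also set against the mean log2(FPKM + 1) of the 16 pan-macrophage genes in the same mouse, as a description. Relative to that mean, Lyve1 lay between -4.38 and -1.36 in Ang II-treated Plod1-/- mice. It lay between 0.32 and 1.03 in saline-treated WT, between -0.04 and 1.0 in saline-treated Plod1-/- and between -1.06 and 0.66 in Ang II-treated WT mice, all above that group. For Gas6 the Ang II-treated Plod1-/- mice ran from -0.30 to 2.57, against 4.31 to 5.68 in saline-treated Plod1-/- mice. Since Lyve1 and Gas6 were themselves not called, these lower ratios mainly restate the higher pan-macrophage mean. Folr2 also lay lower there than in saline-treated Plod1-/- mice, at -5.18 to -3.37 against -2.68 to -1.80, and so did Cd209f, at -5.35 to -2.98 against -1.79 to -0.79. Cbr2 lay at -0.35 to 3.16 there, against 4.82 to 6.04 in saline-treated Plod1-/- mice. Mrc1 (-2.62 to -1.01), F13a1 (-1.55 to -0.24) and Cd163 (-3.94 to -0.80) in Ang II-treated Plod1-/- mice overlapped with every other group. Their mean ratios were still lowest in that group, at -1.91, -0.84 and -1.94. Pf4 was the one gene whose mean ratio was highest with Ang II in Plod1-/- mice, at 1.48 to 2.55, where saline-treated Plod1-/- mice had 0.09 to 1.11, Ang II-treated WT mice 0.27 to 1.0 and saline-treated WT mice 1.30 to 2.41. The saline-treated genotypes did not overlap in the Pf4 ratio either. With Csf1r alone in place of the mean, Lyve1 in Ang II-treated Plod1-/- mice (-3.50 to -0.12) overlapped with Ang II-treated WT mice (-0.90 to 0.18) but not with the saline-treated groups.

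**Figure D3:**
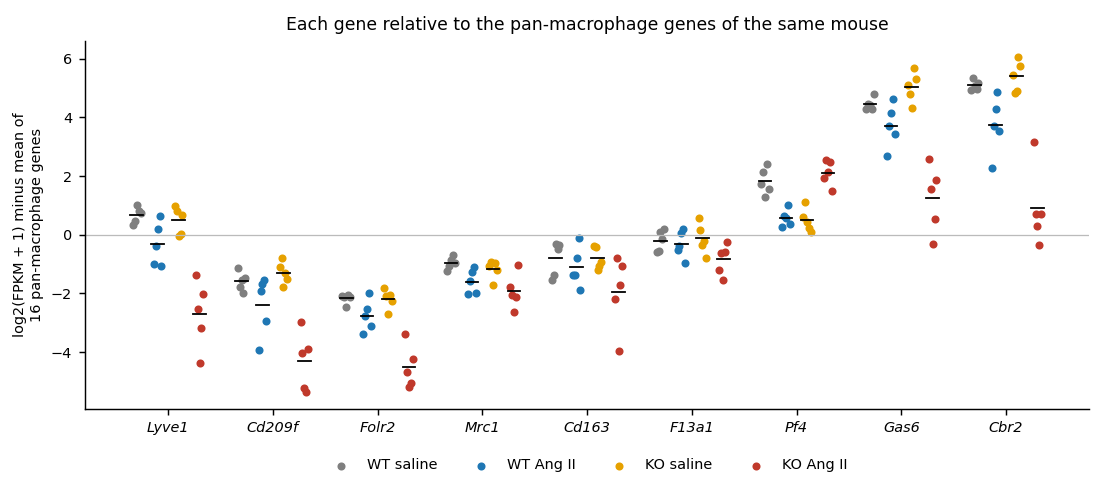
Difference between the log2(FPKM + 1) of each gene and the mean of the 16 pan-macrophage genes in the same mouse, with 1 point per mouse and a bar at each group mean (KO, Plod1-/-). Lyve1 lay between -4.38 and -1.36 in Ang II-treated Plod1-/- mice, and Pf4 lay between 1.48 and 2.55 in the same mice.

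Most of the 9 genes varied together from mouse to mouse within groups, and Cbr2 did not. After the group means were removed, Pearson's r over the 20 mice was 0.92 for Mrc1 with F13a1, 0.86 for Cd163 with F13a1 and 0.82 for Lyve1 with Cd163. Each of the 8 genes other than Cbr2 had r between 0.57 (Cd209f) and 0.88 (Mrc1 and F13a1) with the mean of the other 8. Cbr2 had r of -0.14 with that mean and -0.10 with the pan-macrophage genes. Its r was 0.67 with the mean of 6 smooth muscle genes, such as Myh11 and Acta2, and -0.60 with adipocyte genes, whereas Mrc1 had r of -0.82 with the smooth muscle genes. Pf4 followed the pan-macrophage genes most closely (r = 0.90), while Lyve1 (0.42), Cd209f (0.34) and Gas6 (0.31) followed them least among the other genes. With the fibroblast genes r was 0.68 for Lyve1, 0.58 for Gas6 and 0.41 for Cd209f, each above its r with the pan-macrophage genes, and 0.75 for Mrc1. With the blood endothelial genes F13a1 had r of 0.75. All genes of a library share its depth and tissue composition, so these correlations are descriptions. They include Ang II-treated WT replicate 1 and Ang II-treated Plod1-/- replicate 1, which both lay far from their groups in F13a1. No r was computed without these mice, so its dependence on them is not known. The genes outside the list most like the mean of the 9 were Heg1 (r = 0.90), Selenop (0.89), Ms4a6c, Rnase4, Ms4a4a, Serping1 and Ifi207 (0.88 to 0.89), and Ms4a6b, Pltp and Ppp1cc (0.87).

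**Figure D4:**
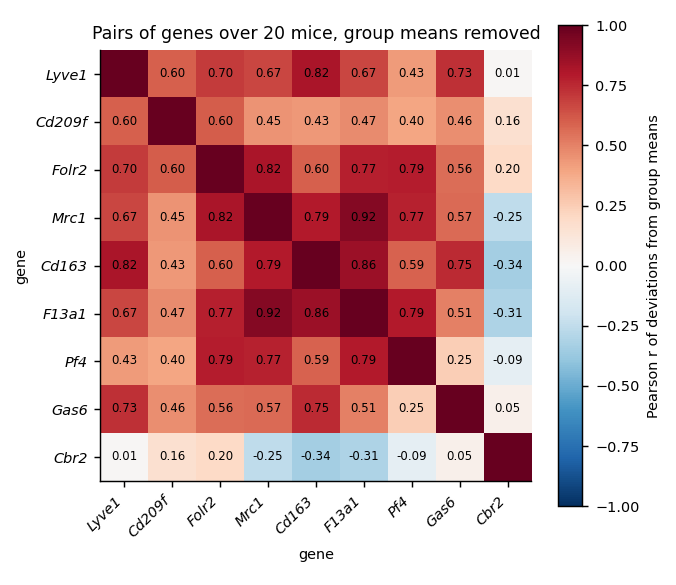
Pearson's r between pairs of genes over 20 mice after the mean of each group was removed from log2(FPKM + 1). Mrc1 and F13a1 had the highest r (0.92), and each r of Cbr2 lay between -0.34 and 0.20.

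The name given to the list was checked against its markers. Cbr2 and Gas6, at means of 410.1 and 261 FPKM in saline-treated WT mice, lay above all 16 pan-macrophage genes in the same mice, of which Lyz2 (103 FPKM), C1qa (93.0 FPKM) and C1qb (74.5 FPKM) were highest and Cd68 was at 15.4 FPKM. The data thus go against the macrophage name for Cbr2, which did not vary with the macrophage genes within groups. The name is in doubt for Gas6 as well, given its level. Its r within groups was 0.31 with the pan-macrophage genes and 0.58 with the fibroblast genes. Lyve1 (0.42 and 0.68) and Cd209f (0.34 and 0.41) also had the lower r with the pan-macrophage genes, so this does not single out Gas6. On the other side, Gas6 had r of 0.64 with the mean of the other members, 0.75 with Cd163 and 0.73 with Lyve1. Like Lyve1, Folr2 and Cd209f, Gas6 was not called with Ang II in Plod1-/- mice, where 15 of 15 pan-macrophage genes tested were called higher. The cells behind the Gas6 values were not tested. Lyve1 also marks lymphatic endothelium. Prox1, the defining transcription factor of that endothelium, was at most 0.478 FPKM in any mouse, while Mmrn1 reached 4.68, Pdpn 4.40 and Flt4 3.79 FPKM. Of these 3 lymphatic genes tested, 0 were called by limma in any comparison, but 2 had an unadjusted p below 0.05 with Ang II in each genotype and 0 between the genotypes. With Ang II in WT mice Mmrn1 was 0.78 (limma adjusted p = 0.0149) and Flt4 0.62 (limma adjusted p = 0.0271) on the log2 scale, and in Plod1-/- mice 0.63 (limma adjusted p = 0.0653) and 0.74 (limma adjusted p = 0.0202). The part of lymphatic vessels in the Lyve1 values was not tested. Timd4, found on a long-lived subset of resident macrophages, was at most 2.0 FPKM and lay between 0.0496 and 0.283 FPKM in Ang II-treated Plod1-/- mice. In saline-treated Plod1-/- mice it ran from 0.242 to 2.0 FPKM, and it was too low to be tested between these groups. Of the further genes of LYVE1-positive macrophages counted below, all 19 tested between these groups had estimates above 0 with Ang II.

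Pf4 is also a platelet gene, and platelet genes were higher in the same mice. The summed FPKM of 9 platelet genes was 37.4 to 175 in Ang II-treated Plod1-/- mice, 4.38 to 31.2 in Ang II-treated WT, 4.37 to 11.3 in saline-treated Plod1-/- and 5.14 to 21.2 in saline-treated WT mice. Between the Ang II-treated genotypes 2 of the 5 platelet genes tested were called higher. These were Ppbp, which encodes a chemokine of platelet granules (3.43, limma adjusted p = 0.00542), and Treml1 (1.55, limma adjusted p = 0.0303). With Ang II in Plod1-/- mice 4 of the 5 platelet genes tested were called higher, with a median log2 fold change of 1.94. For the interaction 4 of 6 were called higher (median 1.58). The defining platelet receptor gene Gp6 was at most 0.409 FPKM in any mouse. Within groups Pf4 had r of 0.48 with the mean of the 6 platelet genes tested in the interaction fit, beside 0.90 with the pan-macrophage genes. The summed FPKM of red blood cell genes was 764 to 9719 in Ang II-treated Plod1-/- mice and 185 to 666 in Ang II-treated WT mice, and that of neutrophil genes was 156 to 723 and 6.57 to 192. The part of blood in the Pf4 and F13a1 values was not tested.

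**Figure D5:**
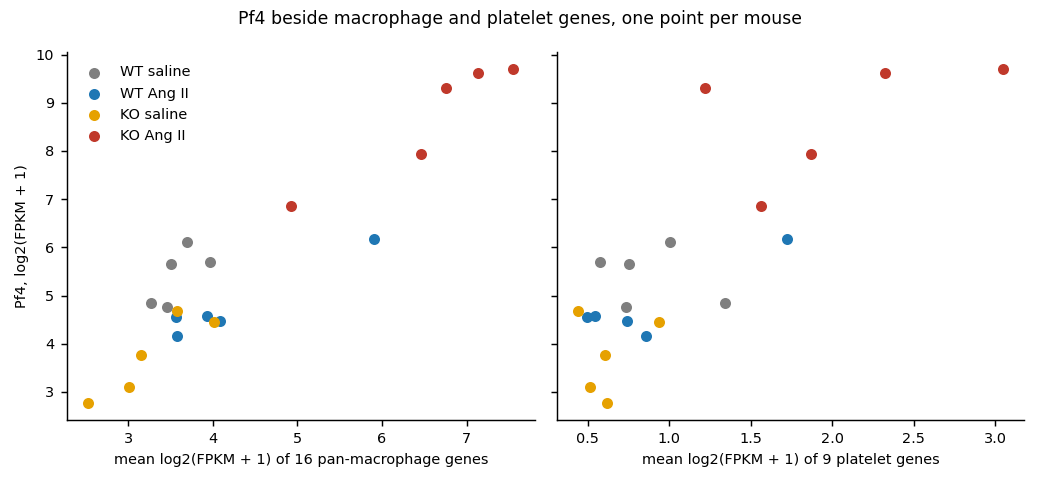
Log2(FPKM + 1) of Pf4 against the mean of the 16 pan-macrophage genes (left) and of 9 platelet genes (right), with 1 point per mouse in 4 groups (KO, Plod1-/-). Within groups r was 0.90 with the pan-macrophage genes and 0.48 with the mean of the 6 platelet genes tested in the interaction fit. Saline-treated WT mice lay above saline-treated Plod1-/- mice in Pf4.

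A list of 24 further genes of LYVE1-positive macrophages was also counted. Between the Ang II-treated genotypes 11 of the 21 tested were called higher and none lower, with a median log2 fold change of 1.22. Igf1, a growth factor, was at 2.03, the iron exporter Slc40a1 at 2.39, the lectin Clec10a at 1.95 and the transcription factor Maf at 1.16. Pltp (-0.20) and Cd209d (0.02) lay near 0, as Lyve1 did, and Fcna (0.61) was not called. In Plod1-/- mice 15 of the 19 tested rose with Ang II, and in WT mice 2 of 16, Ccl8 (2.56) and Ednrb (1.38), were called higher. Between the saline-treated genotypes 0 of 15 were called by limma, although 6 had an unadjusted p below 0.05. Dab2, an endocytic adaptor, had the smallest adjusted p (log2 fold change -0.75, limma adjusted p = 0.0138).

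The partners of the members were mixed. Hmox1, the heme oxygenase that degrades heme delivered through CD163, was 1023 ± 578 FPKM (SD, n = 5) in Ang II-treated Plod1-/- and 24.5 ± 27.6 FPKM (SD, n = 5) in WT mice given Ang II, 5.47 higher on the log2 scale (limma adjusted p = 8.85e-04). Of 5 genes of hemoglobin and heme handling, Hmox1 and Slc40a1 were called higher in that comparison, and 5 of 5 rose with Ang II within Plod1-/- mice. Around LYVE1, the hyaluronan synthase Has1 (2.75) and the other hyaluronan receptor Cd44 (2.49) were higher between the Ang II-treated genotypes, 2 of 4 hyaluronan genes tested. Of the 5 genes of the GAS6 pathway none was called there by limma, although 2 had an unadjusted p below 0.05. Mertk, a TAM receptor, fell with Ang II in WT mice from 39.0 ± 7.80 to 15.2 ± 7.62 FPKM (SD, n = 5 each). The log2 fold change was -1.39 (limma adjusted p = 0.00312). In that comparison 13 of 14 pan-macrophage genes tested had estimates above 0, and the cells behind the Mertk values were not tested. With Ang II in Plod1-/- mice Mertk differed by -0.67 on the log2 scale (limma adjusted p = 0.00199), under the fold threshold. Of the 3 folate uptake genes tested none was called by limma between the Ang II-treated genotypes, and none had an unadjusted p below 0.05. In the CD209 family, Cd209a was called with Ang II in Plod1-/- mice (1.19, limma adjusted p = 0.00794), while Cd209d (0.30) was not.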

How the data were processed

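Total RNA from 20 abdominal aortas was made into libraries with the TruSeq RNA Sample Preparation Kit V2 and sequenced on an Illumina HiSeq instrument. Per the methods, the authors discarded ribosomal reads before HISAT2 alignment, then ran stringtie, cuffquant and cuffnorm. The deposited unit is FPKM for each Ensembl gene. By the methods cuffnorm normalized such values, but whether the deposited values are its output was not checked. The submitters' processing notes list HISAT2 2.1.0, Bowtie2 2.2.3 and HTSeq 0.6.0 with build mm10. The notes and the methods name different HISAT2 versions. FPKM is a relative level and not an absolute amount of RNA. The FPKM sums of the libraries ran from 344207 to 437790.

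Groups and replicate numbers came from the labels. Symbols and coordinates are from GENCODE M21 (GRCm38). FPKM was transformed to log2(FPKM + 1) and tested with limma 3.58.1 (eBayes with a variance trend) in R 4.3.3, after a filter of FPKM of at least 1 in at least 5 mice, with the R package data.table, version 1.17.8. Python 3.11.15, pandas 2.3.3, numpy 2.4.6 and matplotlib 3.10.9 were used for sequences and plots. The method was tested on simulated data. Count tests need read counts and were not run. No member fell below the filter, so the planned exact permutation test was not needed.

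The members and lists were chosen with earlier results of these data known. The named genes are the members, genes called in the comparison described (up to 4 per list, of smallest p), otherwise up to 2 of highest level, defining markers of other cell types, and the 10 genes most like the members. Cd14, Csf1r, Ppbp, Ctss, Pltp, Cd209d, Fcna, Maf, Timd4, C1qa, C1qb, Mmrn1, Flt4 and Pdpn were in part named after their values were seen. Alternatives were a pseudocount of 0.1, no filter, a replicate block, no variance trend, weights per mouse, quantile normalization, all 4 groups in one fit, the adjusted p-value alone, mitochondrial genes left out, removal of both libraries that hold Xist RNA, the pan-macrophage or adipocyte mean as a covariate, Csf1r alone as the denominator of ratios, and each mouse left out in turn.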

Additional observations from a re-analysis of the deposited data

Results flagged for a closer look

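In 36 sets of 5 mice (9 genes in 4 groups), 7 held a mouse far from the other 4 by Dixon's test at its 95% critical value, which chance alone reaches in about 1 in 20 sets. Ang II-treated WT replicate 1 stood above its group in Mrc1 (13.7 FPKM), Pf4 (71.0 FPKM) and F13a1 (40.7 FPKM). F13a1 was far below the other values in saline-treated WT replicate 2 (6.76 FPKM) and in Ang II-treated Plod1-/- replicate 1 (12.3 FPKM), which is a library with Xist RNA. Cd209f was high in saline-treated WT replicate 1 (6.11 FPKM) and low in Ang II-treated WT replicate 5 (1.22 FPKM).

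The response to Ang II differed between the genotypes, by the interaction term of limma on 20 mice, for Mrc1 (difference of log2 responses 2.57, limma adjusted p = 0.00108), Pf4 (5.55, limma adjusted p = 4.93e-05) and F13a1 (2.09, limma adjusted p = 0.0220).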

How the results depend on the processing

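Of the member values recomputed under other settings, 1070 were kept, namely 99 counts of called genes and 971 other values. A fold change was kept if it held its direction and side of the threshold. A ratio was kept if it moved by less than the SD of its group. A count was kept within 1.5 times the original, such as 2 or 4 in place of 3. Of the rest, 61 values changed sign, 28 lost and 27 gained a call, and 19 counts of called genes and 2 ratios moved. The moved ratios are those of Pf4 to Csf1r alone in place of the pan-macrophage mean, against saline-treated WT mice, at -1.54 in place of -1.26 in Ang II-treated WT and 0.81 in place of 0.29 in Ang II-treated Plod1-/- mice. The causes were not tested. FPKM without read counts limits what can be said of low genes such as Folr2.

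Between the saline-treated genotypes the count of called genes went from 1 to 0 with no filter, with the replicate block, with all 4 groups in one fit, without both libraries with Xist RNA and with the adipocyte covariate, and lay between 0 and 1 with 1 mouse left out. With the pan-macrophage covariate it went from 3 to 0 between the Ang II-treated genotypes, from 5 to 0 with Ang II in Plod1-/- mice and from 3 to 1 for the interaction. That covariate did not overlap between the Plod1-/- groups, so the fit cannot separate it from Ang II. With Ang II in WT mice the count was 1 in place of 0 with that covariate and 1 by adjusted p alone. Weights per mouse gave 5 for the interaction in place of 3. With 1 mouse left out the counts ran from 2 to 4 between the Ang II-treated genotypes, 5 to 6 with Ang II in Plod1-/- mice, 3 to 5 for the interaction and stayed at 0 in WT mice. The replicate block left 2, 5 and 3 genes called in these comparisons and the interaction. The labels do not say whether the numbers pair mice. The deviations of same-numbered mice had r from -0.37 to 0.43, which cannot decide this. F13a1 between the Ang II-treated genotypes lost its call with the block (limma adjusted p = 0.0894) and with no filter (limma adjusted p = 0.0805).

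Log2 fold changes near 0 changed sign. With weights per mouse these were Cbr2 between the saline-treated genotypes (0.047), Lyve1 (0.38) and Gas6 (0.073) between the Ang II-treated genotypes, and Folr2 (-0.13), Cd163 (-0.22) and Mrc1 (-0.22) in WT mice. Without both libraries with Xist RNA, Cd209f was 0.074 between the saline-treated and Lyve1 0.053 between the Ang II-treated genotypes. With a pseudocount of 0.1, Mrc1 was -0.015 in WT mice. With the pan-macrophage covariate F13a1 (0.040), Cbr2 (0.043) and Cd209f (0.27) reversed between the saline-treated genotypes, and Folr2 (-0.37), Cd163 (-0.097) and F13a1 (-0.26) between the Ang II-treated genotypes. In WT mice it reversed Folr2 (-0.34), Cd163 (-0.063) and Mrc1 (-0.43), and in Plod1-/- mice Lyve1 (-0.54), Folr2 (-0.22), Cd163 (-0.32), F13a1 (-0.76) and Cd209f (-0.60). For the interaction it reversed Lyve1 (-0.36), Folr2 (-0.31), Cd163 (-0.023), F13a1 (-0.30) and Cd209f (-0.069). With the adipocyte covariate Cbr2 was 0.082 between the saline-treated genotypes, Lyve1 0.079 and Gas6 0.034 between the Ang II-treated genotypes, and Lyve1 -0.40 and Cd209f -0.13 in Plod1-/- mice. In WT mice it gave Lyve1 0.23, Pf4 0.64, Gas6 0.30 and Cd209f 0.065, where the adipocyte mean did not overlap between the groups.

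With 1 mouse left out the sign also changed for Cbr2 (-0.089 to 0.041) and Cd209f (-0.25 to 0.17) between the saline-treated genotypes, for Lyve1 (-0.24 to 0.23) and Gas6 (-0.24 to 0.048) between the Ang II-treated genotypes, and for Lyve1 (-0.18 to 0.30) in Plod1-/- mice. In WT mice it changed for Folr2 (-0.23 to 0.16), Cd163 (-0.026 to 0.56), Mrc1 (-0.31 to 0.13), Gas6 (-0.26 to 0.0031) and Cd209f (-0.25 to 0.030).

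Quantile normalization moved the split of all called genes from 920 higher and 453 lower to 733 and 632 between the Ang II-treated genotypes, from 1034 and 680 to 887 and 880 with Ang II in Plod1-/- mice, and from 1285 and 844 to 981 and 1146 for the interaction. The members called were as many as before in each.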
